A study of Mus musculus with 2 samples.

Results

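The mesenchymal transition transcription factors are 7 repressors and activators named Snai1, Snai2, Snai3, Twist1, Twist2, Zeb1 and Zeb2, and they were followed here in mouse embryonic fibroblasts (MEFs, connective tissue cells grown from embryos) with and without the Lats2 kinase. The members were chosen by name: every probe that was not a control and that carried one of these gene names on the array was taken. This gave 11 probes for the 7 genes, of 41174 probes and 27579 gene names in all. Zeb2 had 5 probes and each other member had 1. Of these, 10 probes of 6 genes were well above background in both RNAs on both arrays, by the scanner software's flag.

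The KO RNA came from untreated MEFs of LATS2-/- C57BL/6J mice and the WT RNA from untreated MEFs of LATS2+/+ mice of the same strain. The genotype field of the labels writes these as LAT2-/- and LAT2+/+. Both RNAs were labelled with the dyes Cy5 and Cy3 and hybridised together on 2 arrays, with the KO RNA in Cy5 on the first and in Cy3 on the second. The labels give no age or number of embryos and name no separate cultures, so both arrays are read as a dye swap of the same RNAs, with 1 sample per genotype.

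Snail and Zeb proteins are zinc finger repressors, and Twist proteins are basic helix-loop-helix (bHLH) factors that bind DNA as dimers. In embryos they let epithelial cells leave their layer and become mesenchyme, and in fibroblasts, which already are mesenchymal, several of them stay expressed. LATS2 is a kinase of the Hippo pathway, and it is also known to bind and phosphorylate SNAI1 protein. Arrays measure transcripts, and protein levels were not measured here.

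Snail and Zeb proteins recognise the E-box CAGGTG, whose reverse complement is CACCTG. Both spellings were searched in the RefSeq promoters (GRCm38.p6, 250 bases before to 50 after each transcript's start), and 22.6% of the 27025 genes with a promoter there held at least 1 such E-box. Among the members, promoters were at hand for Snai1, Twist1, Twist2 and Zeb2, and Snai1 alone of these held the letters, with 1 E-box beginning 126 bases before the start. Among the genes fixed as epithelial targets of these repressors, 15 of the 18 with a promoter held it (83.3%), and among the mesenchymal targets 1 of 13 (7.69%). These are matches of letters and not measured binding sites, and a gene counted if any of its promoters held them. The epithelial list names targets of factors that bind this E-box, so its share is not a test of binding. The promoters of Snai1 and of 3 epithelial targets are shown with each E-box in capitals. Crb3 was taken because it held the most E-boxes. Patj and Dsp are among the targets with an E-box whose probes had a signal in these cells. Krt5, Cldn3 and Cldn7 are so too and are not shown. Patj is shown by its first promoter, and its other promoters held no E-box. Dsp was chosen after its values were seen. The promoters shown lie at chr2:167537945-167538244 (Snai1), chr17:57061951-57062250 (Crb3), chr4:98395576-98395875 (Patj) and chr13:38151044-38151343 (Dsp), all on the plus strand.
Snai1: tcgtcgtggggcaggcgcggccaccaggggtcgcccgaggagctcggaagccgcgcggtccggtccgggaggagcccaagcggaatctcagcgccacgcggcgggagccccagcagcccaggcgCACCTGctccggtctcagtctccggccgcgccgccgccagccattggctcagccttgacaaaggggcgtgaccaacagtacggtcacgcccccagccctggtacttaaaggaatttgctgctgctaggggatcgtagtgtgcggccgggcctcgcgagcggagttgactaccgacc
Crb3: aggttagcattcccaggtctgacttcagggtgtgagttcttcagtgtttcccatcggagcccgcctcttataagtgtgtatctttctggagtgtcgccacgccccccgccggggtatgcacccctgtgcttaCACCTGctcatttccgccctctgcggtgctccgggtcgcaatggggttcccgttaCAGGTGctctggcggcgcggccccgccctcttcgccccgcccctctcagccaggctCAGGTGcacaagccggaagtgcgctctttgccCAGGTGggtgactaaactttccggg
Patj: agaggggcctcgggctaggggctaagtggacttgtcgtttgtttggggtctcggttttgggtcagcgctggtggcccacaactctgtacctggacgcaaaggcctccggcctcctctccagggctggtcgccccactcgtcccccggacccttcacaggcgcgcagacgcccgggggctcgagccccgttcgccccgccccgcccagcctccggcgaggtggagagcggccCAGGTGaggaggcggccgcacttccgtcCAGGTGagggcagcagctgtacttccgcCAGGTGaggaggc
Dsp: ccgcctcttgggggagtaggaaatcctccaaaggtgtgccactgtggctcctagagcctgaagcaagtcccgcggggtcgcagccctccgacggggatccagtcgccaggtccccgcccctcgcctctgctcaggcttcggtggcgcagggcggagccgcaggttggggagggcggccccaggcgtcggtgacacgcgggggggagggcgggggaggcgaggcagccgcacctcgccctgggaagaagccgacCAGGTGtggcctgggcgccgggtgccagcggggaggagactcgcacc
The sequences show that the E-boxes of Crb3 and Patj recur close to each other around the start, whereas Snai1 and Dsp have 1 each.

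Each array held 45018 spots, of which 1639 were controls. No spot outside the controls was saturated on either array. The log2 ratios of KO over WT on the first array and on the turned second array had a Pearson correlation of 0.94 across the 22357 probes well above background in both RNAs. The standard deviation (SD) of a single array's ratio, from the difference between the arrays over those probes, was 0.14, and that of a mean of both arrays was 0.10, both on the log2 scale. This SD covers hybridisation and dye error only. There was 1 sample per genotype, so no difference below was tested between genotypes. Lats2 checks the labels, and its 4 probes had mean log2 ratios of 0.56, 0.56, 0.63 and -0.35, so that 3 gave more signal with the RNA labelled KO. Which part of the gene is deleted is not given in the sources used here, so the probes settle nothing about it, and KO and WT stand below for the RNAs so labelled. Of the fibroblast markers, 8 of the 9 measured were well above background in both RNAs. The summed signal of all 9 was 94991 to 103943 in KO and 127311 to 134384 in WT. The 1 that did not pass in both was the single probe of Vim (vimentin), which was well above background in WT and not in KO. That probe was dim in both, with a signal of 77.0 in KO and 142 in WT. The passing markers ran from Lum at 120 and 108 to Thy1 at 44232 and 60525. A loss of vimentin cannot be read from a single probe this dim. Of 9 epithelial markers 3 passed in both RNAs, and Cdh1, Epcam, Krt8 and Krt18 were not well above background in either. The summed signal of all 9 was 904 to 952 in KO and 687 to 693 in WT. Within that sum Krt19 was at 347 in KO and 80.0 in WT. Haematopoietic markers summed to 1813 to 1834 in KO and 1327 to 1337 in WT, with Lyz2 at 1285 and 597 and Cd14 the other way at 174 and 361. Neural and glial markers summed to 2534 to 2579 in KO and 3627 to 3686 in WT. Each sum is over every measured marker of its type, so it includes probes not well above background. No endothelial or skeletal muscle marker passed. The part of other cells in the results was not tested, and in such cultures fewer cells of a type and less RNA per cell cannot be told apart.

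A probe is called here when each array showed a 2-fold or larger difference (log2 ratio 1 or more, or -1 or less) the same way and the RNA with the higher signal was well above background on both. None of the 11 member probes was called, where 4.56% of all 24186 probes with a signal above background were. Taking the brightest probe of each gene, 2.95% of 15877 genes were called higher in KO and 2.61% lower. At 1.4-fold on both arrays 1 member probe, that of Zeb2 farthest from the 3′ end, was called, where 16.8% of all probes were. By brightest probe no member gene was called at 1.4-fold, where 9.35% of all genes were called higher in KO and 9.5% lower. Below these thresholds the members spread to both sides. Snai2 was higher in KO, Twist1, Twist2, Zeb1 and Zeb2 were lower on both arrays, and Snai1 was level.

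**Figure D1:**
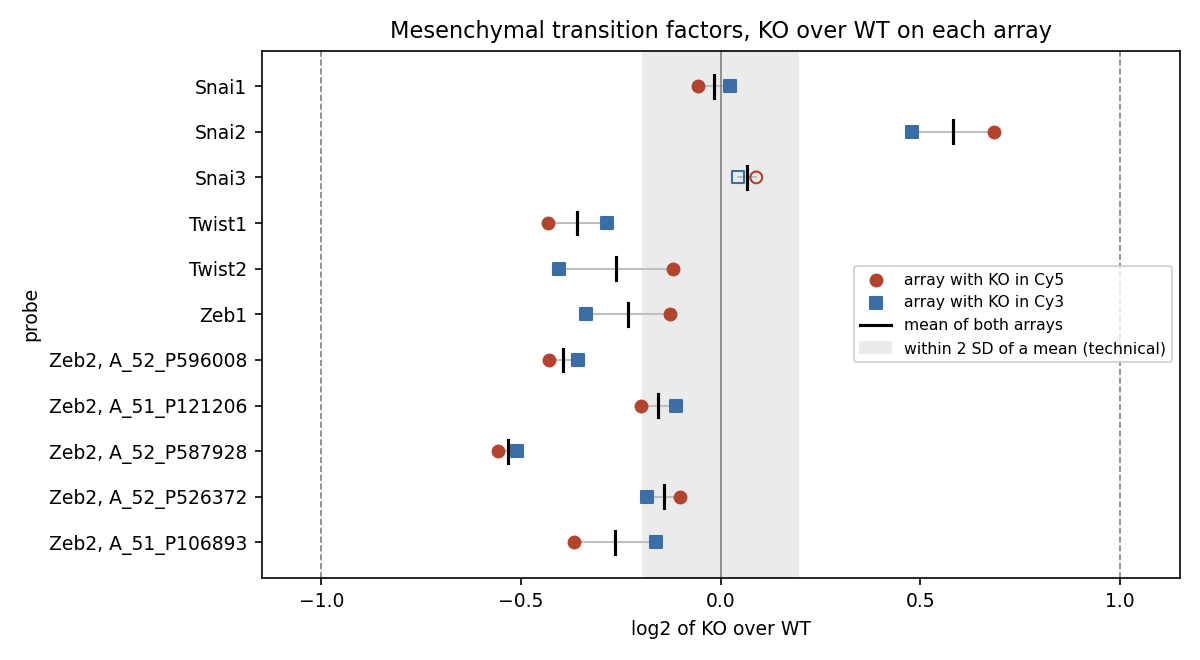
Log2 ratio of KO over WT for the 11 member probes. Circles are the array with KO in Cy5, squares the array with KO in Cy3, vertical bars their mean, open symbols a probe not well above background, the grey band 2 SD of a mean (0.19) and dashed lines 2-fold. Snai2 lies alone on the right at 0.58, and every probe of Twist1, Twist2, Zeb1 and Zeb2 lies left of 0 on both arrays.

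Snai1 encodes SNAIL, the repressor of E-cadherin that LATS2 is known to bind. Its probe lies at chr2:167233778-167233837 of the mm8 build, on which all probe positions here are given. The log2 signal of Snai1 was 10.40 in KO and 10.46 in WT on the array with KO in Cy5. On the dye-swapped array it was 10.501 in KO and 10.48 in WT. The KO and WT signals thus overlapped, and the log2 ratios of -0.06 and 0.02 had a mean of -0.02, or 98.8% of WT. Of the 6 measured members, Snai1 was thus the nearest to an equal signal in both RNAs.

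Snai2 encodes SLUG, the relative of SNAIL that marks neural crest and many mesenchymal cells. Its probe lies at chr16:14622846-14622905. On the array with KO in Cy5 the log2 signal of Snai2 was 13.74 in KO and 13.06 in WT. On the dye-swapped array it was 13.48 in KO and 13.00 in WT. Both KO signals were above both WT signals. Here and for the members below, such signals are read as repeat hybridisations of the same RNAs, not replicates. The share of all genes whose signals separate so was not counted. The log2 ratios were 0.69 and 0.48, with a mean of 0.58, which is 1.5-fold higher in KO and 6.02 times the SD of a mean. Among all probes well above background in both RNAs, 7.58% had a higher mean ratio.

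Snai3, a less studied Snail gene best known from muscle and thymus, had its probe at chr8:125342423-125342482. It was not well above background in either RNA on either array. Its log2 signals of 6.00 to 6.11 lie near the lower end of the scale, and no fold is given.

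Twist1, the bHLH factor of cranial and limb mesenchyme, was measured at chr12:34544793-34544852. Its log2 signal was 11.30 in KO and 11.73 in WT with KO in Cy5. After the dye swap it was 11.40 in KO and 11.69 in WT. The KO signals lay below the WT signals, and the log2 ratios of -0.43 and -0.29 had a mean of -0.36, which puts KO at 77.9% of WT.

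Twist2, its close relative known from dermis, was measured at chr1:93678348-93678406. Its log2 signal was 10.95 in KO and 11.07 in WT with KO in Cy5. After the dye swap it was 10.78 in KO and 11.19 in WT. Both KO signals were below both WT signals. The size was less settled than for the other members: the log2 ratios were -0.12 and -0.41, a difference between arrays of 0.29 where the SD of such a difference is 0.19. Their mean of -0.26 is 83.4% of WT.

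Zeb1, a zinc finger and homeodomain repressor of epithelial genes, was measured at chr18:5774613-5774672. Its log2 signal was 10.23 in KO and 10.36 in WT with KO in Cy5. After the dye swap it was 10.13 in KO and 10.46 in WT. The KO signals again lay below the WT signals, and the log2 ratios of -0.13 and -0.34 had a mean of -0.23, or 85.1% of WT.

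**Figure D2:**
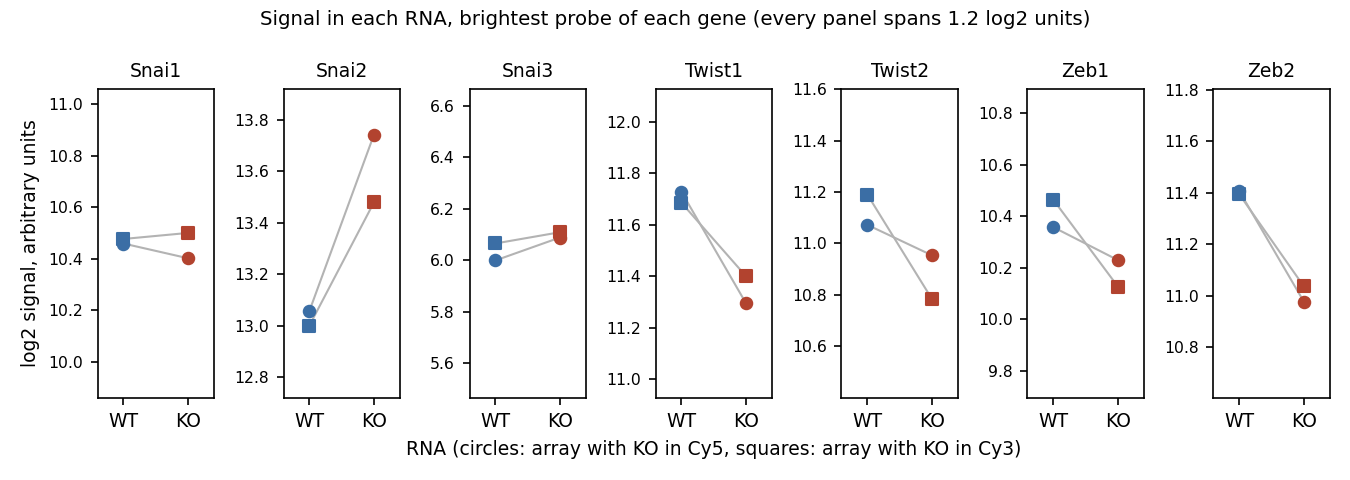
Log2 signal in WT (blue) and KO (red) for the brightest probe of each member, after loess and Aquantile scaling, in arbitrary units. Lines join the RNAs of 1 array, circles the array with KO in Cy5 and squares the other, and every panel spans 1.2 log2 units. The lines of Snai2 run up from WT to KO on both arrays (13.06 to 13.74 and 13.00 to 13.48), and those of Twist1, Twist2, Zeb1 and Zeb2 run down. Those of Snai1 part, running slightly down on the array with KO in Cy5 and slightly up on the other.

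Zeb2, the relative of Zeb1 that also acts in neural crest and gut neurons, lies on the minus strand of chromosome 2 and had 5 probes. They share a gene name and are not replicates. The brightest, at chr2:44809263-44809322, had a log2 signal of 10.98 in KO and 11.41 in WT with KO in Cy5. After the dye swap it was 11.04 in KO and 11.39 in WT. The log2 ratios of -0.43 and -0.36 had a mean of -0.39, or 76.1% of WT.

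The other Zeb2 probes were lower in KO on each array too, by unequal amounts. The probe nearest the 3′ end, at chr2:44806527-44806586, had log2 ratios of -0.10 and -0.18. The probe 4.03 kb upstream of it had -0.20 and -0.11. Both means, -0.14 and -0.16, lie within 2 SD of 0. The dim probe 24.7 kb upstream, from a full-length clone described as unclassifiable, had -0.37 and -0.16. The probe 36.5 kb upstream, at chr2:44843001-44843060, had -0.56 and -0.51, and its mean of -0.53 (69.1% of WT) was the lowest of all 11 member probes. It differed from the 3′-most probe by more than 2 SD of such a difference (0.27). Labelling began from an oligo-dT primer at the 3′ end of the RNA. Whether the upstream probes lie in exons of the same transcript was not analysed here.

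A further probe within this stretch, 18.3 kb upstream, carries a clone name in place of a gene name and a description as zinc finger homeobox 1b, an old name of Zeb2. It falls outside the naming rule and is given apart. Its log2 ratios were -0.23 and -0.34. The dim probes at 18.3 and 24.7 kb moved most with the handling of low signals. With a smaller added constant (normexp offset 10 in place of 50) their means were -0.54 and -0.45. With the scanner software's own ratio they were -0.96 and -0.84. The brightest probe stayed at -0.40 under both.

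**Figure D3:**
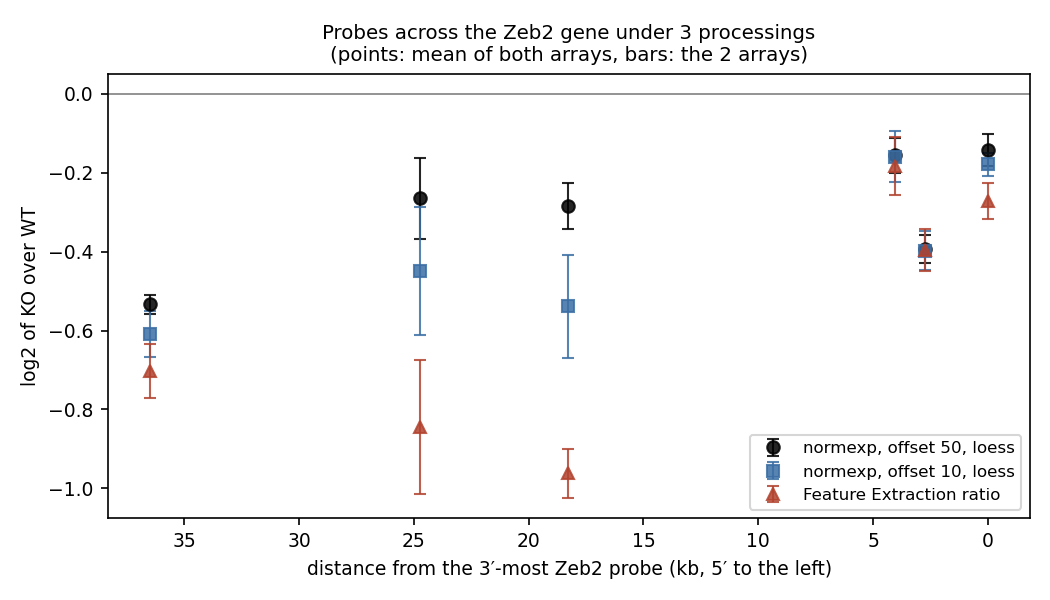
Mean log2 ratio of KO over WT for 6 probes across Zeb2, against distance in kb from the 3′-most probe (5′ to the left), under 3 processings marked by colour and shape. Bars run from 1 array to the other. All points lie below 0, and the dim probes at 18.3 and 24.7 kb spread from -0.28 and -0.27 to -0.96 and -0.84 with the processing.

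Ordered by mean log2 ratio the 6 measured members ran from Snai2 (0.58) over Snai1 (-0.02), Zeb1 (-0.23), Twist2 (-0.26) and Twist1 (-0.36) to Zeb2 (-0.39). Of their 15 pairs, 7 differed by more than 2 SD of a difference (0.27). Snai2 stood apart from each of the other 5, by 0.60 to 0.98. Snai1 differed from Twist1 (0.34) and Zeb2 (0.38) but from Zeb1 and Twist2 only by 0.22 and 0.25. Zeb1, Twist2, Twist1 and Zeb2 could not be ordered among themselves at this error. Zeb2 is placed here by its brightest probe. Its 5 probes ran from -0.53 to -0.14, so its distance from the other members depends on that choice. Of the 6 genes, 5 lay beyond 2 SD of a mean (0.19), 1 above and 4 below. Over all 14723 genes well above background in both RNAs, 56.4% did, 27.1% above and 29.3% below. Lower on both arrays were 4 of the 6 and 41.9% of all such genes. The median over the 6 was -0.25, beside -0.0037 over all genes above background.

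**Figure D4:**
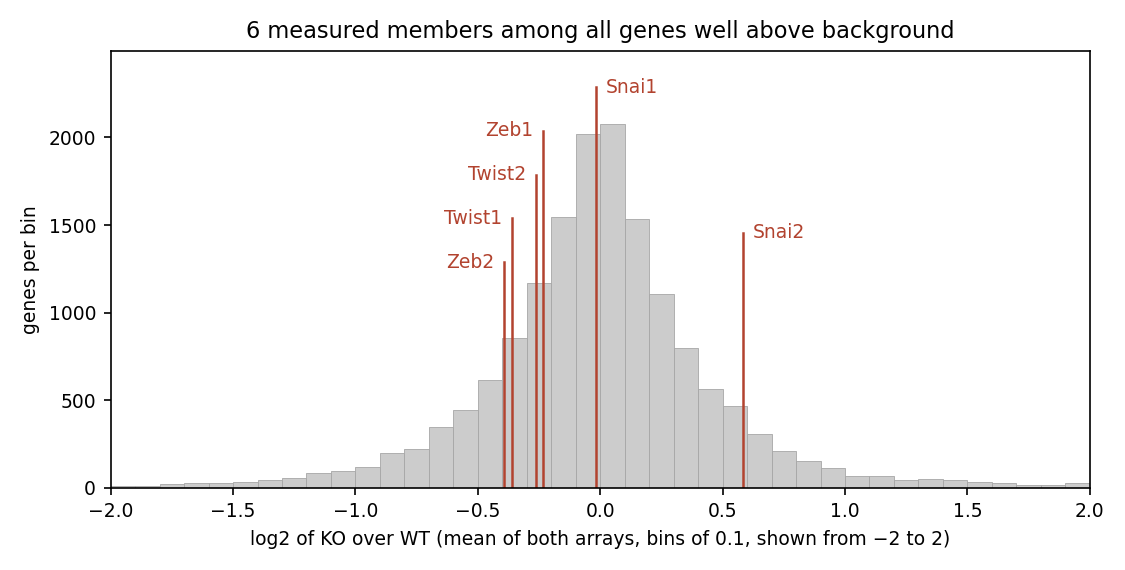
Histogram of the mean log2 ratio of KO over WT (bins of 0.1, from -2 to 2) for all genes well above background in at least 1 RNA, with a line for each of the 6 measured members. Twist1, Twist2, Zeb1 and Zeb2 sit on the left flank between -0.39 and -0.23, Snai1 in the middle and Snai2 on the right flank at 0.58.

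Around the members, 8 lists of partners, targets and upstream signals held 119 genes, of which 116 were measured and 90 were above background in 1 or both RNAs. Of the 90, 7 were called higher in KO (7.78%, where 2.95% of all genes were) and 3 lower (3.33%, where 2.61% were). With the scanner software's own ratio the split was 8 higher and 7 lower, and with median centring in place of loess 2 and 1. The lists were chosen with earlier results of these data known.

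Twist proteins need bHLH partners, the E proteins Tcf3, Tcf4 and Tcf12, and Id proteins block such pairs. All 7 genes of this list were above background, and 3 were called. Tcf4 fell, with log2 ratios of -1.58 and -1.62, the signal in WT being 3.03-fold that in KO. Its 3 probes ranged from -1.60 to -0.21. Id1 (1.14 and 1.12) and Id4 (1.21 and 1.19) rose, and both probes of each were higher by over 1. Id3 was at -0.50, Tcf12 at -0.33 (-0.07 and -0.60 on the single arrays) and Id2 at -0.18, none of them called. The list thus held Id genes on both sides, and its median was -0.18.

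Co-repressors that Snail and Zeb proteins recruit, such as histone deacetylases and LIM proteins of the Ajuba family, gave no call among 13 genes. Hdac1, a histone deacetylase, came nearest with -1.0 and -0.80. Ajuba, a LIM adaptor that also binds LATS kinases, was at 0.70 and Prmt5, an arginine methyltransferase, at 0.61. The median was 0.25. Of the regulators of Snail and Twist protein stability, 13 of the 14 measured were above background and none was called, with a median of -0.04. Apart from Lats2 at 0.56, the furthest from 0 were the ubiquitin ligase subunits Fbxl14 (-0.43, from -0.56 and -0.29) and Fbxo45 (-0.42). Another Fbxl14 probe above background was at -0.08.

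Other factors linked to the same transition gave no call among 7 genes above background, and 6 of them were below 0. Foxc2, a forkhead factor of mesenchyme, had log2 ratios of -0.92 and -1.33, past 2-fold on 1 array. Klf8 was at -0.42 (-0.26 and -0.58 on the single arrays), and Sox9, the cartilage and neural crest factor, at 0.46. The median was -0.40. Of the factors that hold the epithelial state, 3 of the 11 measured were above background. Klf5, a zinc finger factor of gut and skin epithelium, rose with log2 ratios of 1.64 and 1.47 (2.94-fold). Only 1 of its 2 probes was above background. Grhl1 and Ovol2 were at 0.13 and 0.02.

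Epithelial target genes were mostly silent to the array in both RNAs. Of 24, 11 were above background in 1 or both RNAs and 8 in both, and Cdh1 (E-cadherin), Epcam, Ocln and Crb3 were in neither. Krt19, a keratin of simple epithelia, rose with log2 ratios of 2.09 and 2.15, or 4.34-fold. Patj, a polarity scaffold whose promoter is shown above, was at 0.83, Llgl2 at 0.33 and Cldn1 at 0.20 (0.30 and 0.09). Dsp (desmoplakin), the other promoter shown with a signal, was not well above background in KO by its brightest probe, with log2 ratios of -0.95 and -1.13. The bound on its dim side equalled its measured signal, so the 2.06-fold higher WT signal of that probe is the measured mean and not a minimum. The other Dsp probe above background had a mean log2 ratio of -0.70. The above-background genes of this list lay on both sides of 0, and the median over the 11 was -0.04.

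Mesenchymal target genes were nearly all expressed, 23 of the 24 measured, and 4 were called, 2 each way. Mmp2, a gelatinase, rose with log2 ratios of 1.62 and 1.96. Mmp3, a stromelysin, fell with -2.55 and -2.47 (WT 5.70-fold higher), and Postn, the matrix protein periostin, with -1.65 and -1.74 (WT 3.24-fold higher). Short of the threshold were Fn1 (fibronectin) at 0.89, Acta2 (smooth muscle actin) at 0.79 and Lox (lysyl oxidase) at 0.73. The single arrays differed for Acta2 (0.995 and 0.59) and for Lox (0.97 and 0.49). The 3 Acta2 probes ranged from -0.64 to 0.93, and the 4 Fn1 probes from 0.27 to 0.99. Of the 23, 9 were above 0 and 14 below, with a median of -0.14.

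TGF-beta signalling is a classical inducer of Snail, Zeb and Twist genes. All 13 genes of this list were above background in 1 or both RNAs, and the ligand Tgfb2 rose with log2 ratios of 1.22 and 1.26 (2.36-fold). The feedback inhibitor Smad7 had 1.32 and 0.80, past 2-fold on 1 array. The receptor Tgfbr1 was at -0.78 (-0.44 and -1.11 on the single arrays) and Tgfbr2 at 0.70, while another Tgfbr2 probe above background was at -0.08. The median was 0.10, with 8 genes above 0 and 5 below.

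**Figure D5:**
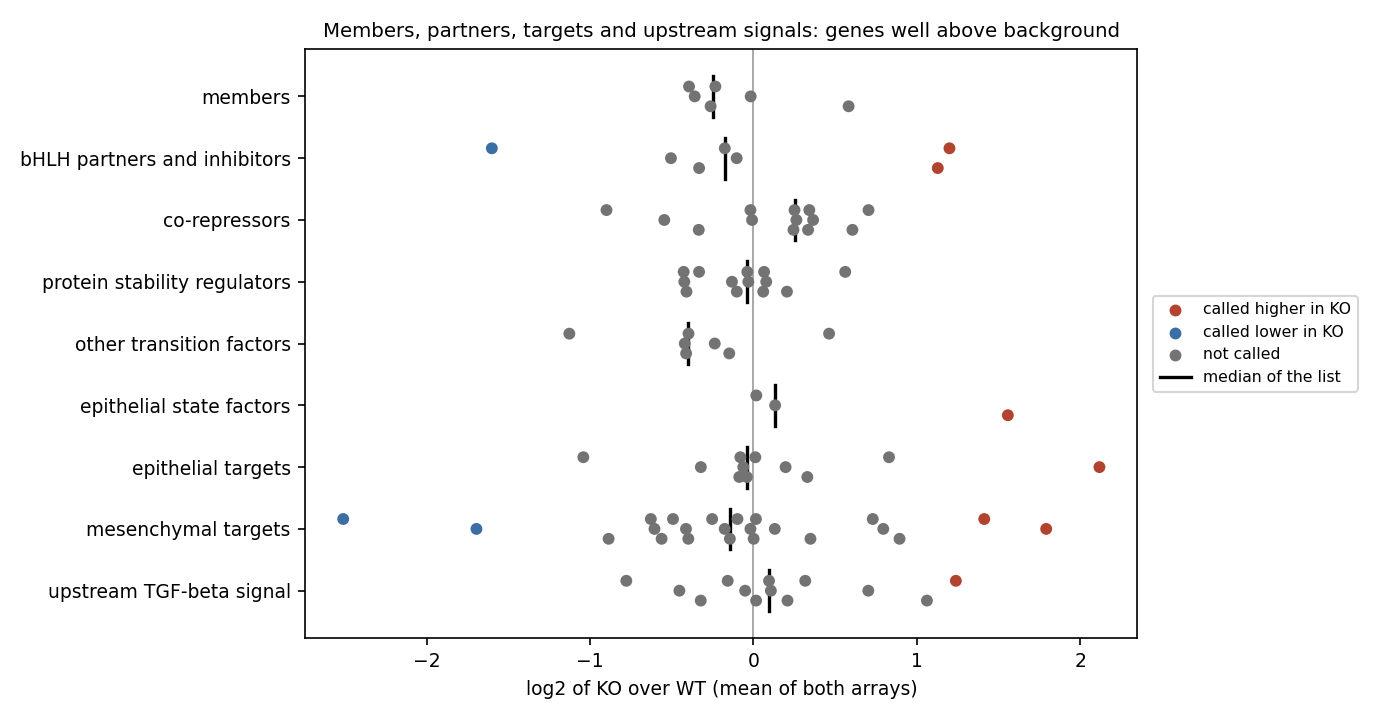
Mean log2 ratio of KO over WT for the members and for each list, genes above background in at least 1 RNA. Each dot is a gene by its brightest probe, red if called higher in KO, blue if called lower, grey otherwise, and black bars are list medians. No member is coloured, and the called genes, from Mmp3 at -2.51 to Krt19 at 2.12, lie in the lists around them.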

How the data were processed

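RNA of KO and WT MEFs was compared on 2 two-colour Agilent mouse arrays. Per the file headers, spots were read with Agilent Feature Extraction 10.5.1.1, and the authors deposited, as intensity, each spot's mean signal and local background, with the software's own log10 ratio and flags. The deposited table of log2 values equalled that ratio turned to KO over WT, within 0.001 for 99.7% and 99.8% of probes well above background in both RNAs. Its column medians were -0.02 and 0.04. No pooling of replicates is stated in the sources used here.

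Background was removed by the normexp method (offset 50) of limma 3.58.1 (R 4.3.3), and loess was run within each array. With this offset, dim probes have ratios nearer 0. Controls and spots flagged as outliers were dropped, spots of a probe were averaged, and the second array was turned. Levels per RNA followed Aquantile scaling. For probes spotted repeatedly, "well above background" required the flag in a share of at least 0.5 of the spots. The brightest probe stood for a gene. A bound for a gene dim in 1 RNA was set against the higher of its own signal and the lowest signal well above background. List genes were matched by array name or, for 8, by RefSeq accession, and 3 were not found. Probes that the array calls Tcf3 carry an accession of Tcf7l1 and were not used for the E protein. The text names all member probes, every called list gene and, of each list otherwise, the 3 genes furthest from 0 that were well above background in both RNAs. One called gene of the mesenchymal targets is counted but not reported here by name. The steps were tested on simulated data. Members and lists were chosen with earlier results of these data known. Alternatives covered background correction, normalisation, single arrays, probes of a gene and the call rule.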

Additional observations from a re-analysis of the deposited data

How the results depend on the processing

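No paired analysis was possible because the labels name 1 sample of either genotype. None of the member genes was called under any alternative run. At 1.4-fold 1 member probe was. Snai2, Twist1, Twist2, Zeb1 and Zeb2 kept their direction under all 9 alternatives each. Snai1 kept it under 7 of 9, and its values ran from -0.06 to 0.02. Not all alternatives could differ. Aquantile scaling leaves the ratios of an array unchanged. The deposited table repeats the Feature Extraction ratio for nearly all probes well above background in both RNAs. For lists with dim genes they could differ. The epithelial targets' median over all measured genes was -0.07 with the Feature Extraction ratio and -0.14 with the table. A mean over probes changes nothing for a member with 1 probe. The single arrays gave Twist2 -0.41 to -0.12. The Zeb2 probes 24.7 and 36.5 kb upstream moved to -0.84 and -0.70 with the Feature Extraction ratio or the deposited table, and the former to -0.45 with offset 10. The other transition factors' median was -0.40 over genes above background and -0.19 over all measured. List genes called higher in KO numbered 7, against 2 with median centring, 16 at 1.4-fold and 0 by the methods' t-test after Benjamini-Hochberg adjustment. Those called lower numbered 3, against 5 with offset 10, 7 with the Feature Extraction ratio or the deposited table, 1 with median centring, 10 at 1.4-fold, 5 by the mean of both arrays, 5 by limma and 0 by the adjusted t-test. The array with KO in Cy5 alone gave 3 and the other alone 6. The tests over 2 arrays see hybridisation error only: at 2-fold over all probes, limma called 1260, the unadjusted t-test 967 and the adjusted t-test 0. In all, 206 of 227 values stayed within the spread between arrays or within 1.5 times the count. This total includes the alternatives that could not differ. Dim signals limit Snai3, the upstream Zeb2 probes and most epithelial genes.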
